A study of Homo sapiens with 6 samples.

Results

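The genes described here act in homologous recombination, in the Fanconi anaemia pathway and in the checkpoint signalling around them. The set was fixed as 41 named genes, out of 56303 gene entries in the deposited count table, and all 41 were found by name. RNA sequencing had been done on AGS cells, a human line grown from a gastric adenocarcinoma. In 3 libraries the gene SRSF2, which encodes a serine/arginine-rich splicing factor, had been silenced with siRNA (siSRSF2), and the other 3 came from cells labelled as wild-type (WT). Both groups were grown in DMEM/F12 medium with fetal bovine serum. The labels do not say if WT cells were given a control siRNA, how long silencing lasted or if libraries came from separate cultures, so the p-values reflect only how far these samples spread, and that spread may be technical.

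Total counts were between 26610937 and 36651623 in siSRSF2 libraries and between 47518943 and 50021152 in WT libraries. The target itself was lower in siSRSF2 cells, at 22.7 ± 1.83 counts per 1000000 reads (CPM, on scaled library sizes) against 45 ± 1.19 CPM in WT cells (SD, n = 3 per group; edgeR adjusted p = 4.39e-13). All 41 repair genes passed the filter on low counts, with between 98 and 8057 reads per gene and library. Of 7 markers of an epithelial line, 2 were higher, 1 was lower and 4 did not pass. KRT8 (the lower one) was at 2776 CPM in siSRSF2 and 3236 CPM in WT libraries and KRT18 at 1058 and 1099 CPM. The claudin genes CLDN7 (10.05 CPM in siSRSF2, 1.70 CPM in WT; log2 fold change 2.56, edgeR adjusted p = 3.13e-15) and CLDN4 (4.99 and 1.45 CPM; 1.79, edgeR adjusted p = 4.85e-09) were the higher ones. EPCAM was at 5.80 and 5.005 CPM and KRT19 at 3.18 and 3.21 CPM, while CDH1, which encodes E-cadherin, held only 6 to 12 reads per library, so this epithelial marker was nearly absent from both groups. Summed fibroblast and endothelial markers were at 52.4 to 59.1 CPM in siSRSF2 and 25.5 to 26.2 CPM in WT libraries, with 5 of 8 tested markers higher and 2 lower. The higher ones were COL1A1, COL3A1, DCN, LUM and PDGFRB, with COL1A1 alone at 35.6 CPM in siSRSF2 and 16.0 CPM in WT. The lower ones were the endothelial genes PECAM1 (0.206 CPM in siSRSF2, 0.831 CPM in WT; log2 fold change -2.03) and CDH5 (0.955 and 2.225 CPM; -1.21). Of the leukocyte markers, CD2 was listed at 0 in every library and PTPRC, which marks all leukocytes, had 2 to 10 reads. In bulk samples a higher marker sum can reflect more cells of a type or more RNA per cell, and these cannot be told apart. The part of these markers in the values below was not tested.

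Homologous recombination repairs a broken chromosome by copying the intact sister chromatid. The broken ends are trimmed to single strands, the mediators BRCA1, PALB2 and BRCA2 prepare them for pairing with the sister chromatid, and nucleases and helicases resolve the joined molecules. The Fanconi anaemia pathway repairs links between the DNA strands: its core complex ubiquitinates the FANCD2-FANCI pair, and the lesion is then cut out and handed to recombination. ATM and ATR are the kinases that sense breaks and stalled forks and signal through CHEK2 and CHEK1.

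The 41 genes did not move as a block. In siSRSF2 cells 14 were higher, 12 were lower and 15 did not pass the edgeR quasi-likelihood test (Benjamini-Hochberg adjusted p under 0.05 over all 23689 genes tested). The share called, 63.4%, was near the 59.1% of all genes called, and over all genes 30.1% were called higher and 29% lower. The median log2 fold change was 0.02 for the members and 0.02 for all genes. The median absolute log2 fold change was 0.24 for the members and 0.48 for all genes. Only 2 of the 41, NBN and RAD51B, passed the test with a change over 2-fold, against 4582 of the 23689 genes tested. The groups did not overlap in 30 of the 41, where the figure over all genes was 63.8%. Summed over the members, levels were 2037 to 2075 CPM in siSRSF2 and 1985 to 2015 CPM in WT libraries. With scaling by library totals alone, which raised log2 fold changes by a median of 0.13, 20 members were higher and 10 lower (36.1% and 23.2% of all genes). Tested against a change of at least 1.2-fold, 9 members were higher and 7 lower (23.5% and 20.9% of all genes).

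**Figure D1:**
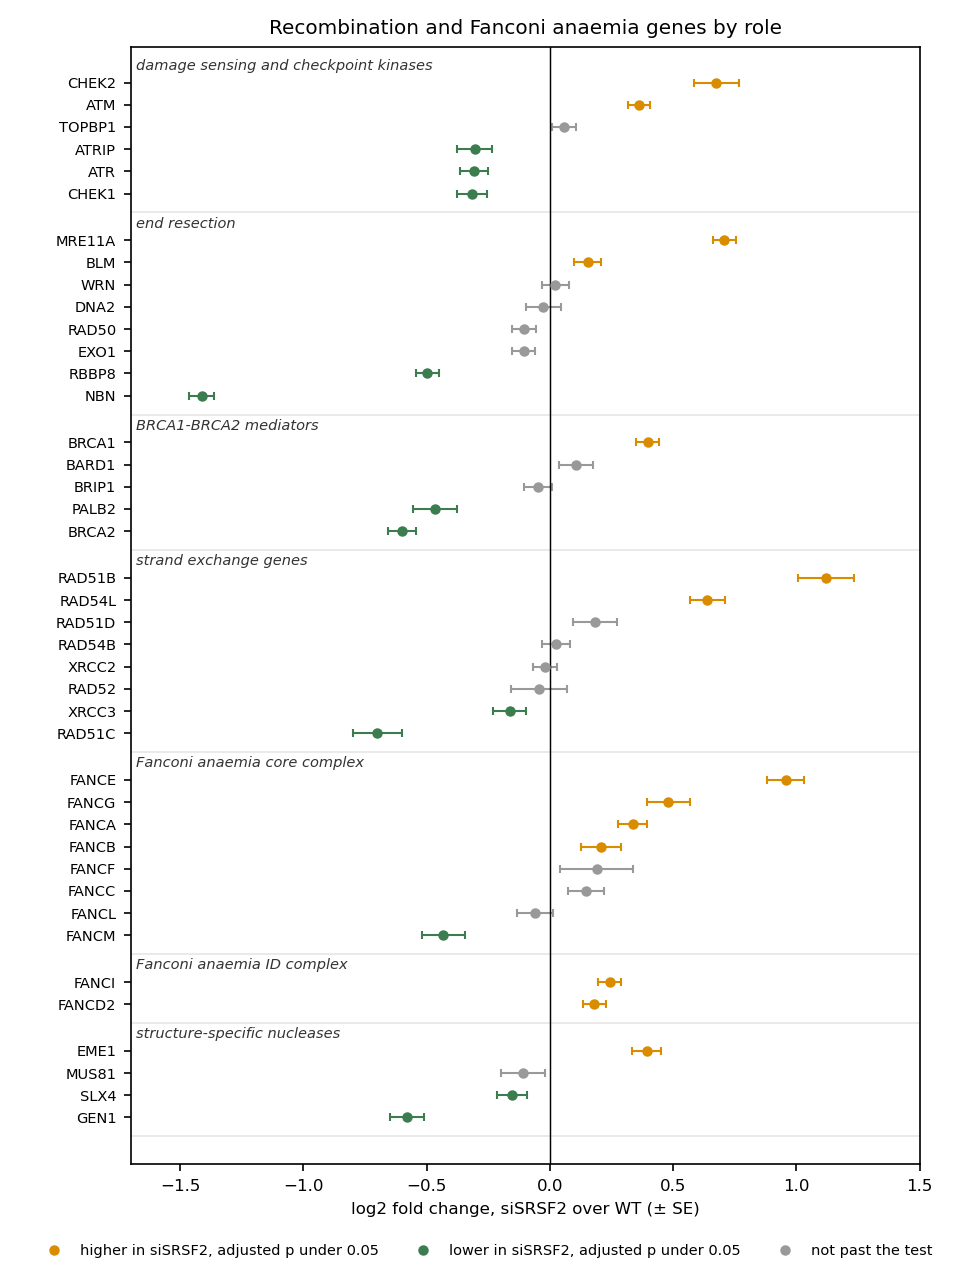
Log2 fold change of each of the 41 genes, siSRSF2 over WT (x axis, bars are SE from edgeR, n = 3 libraries per group), with genes grouped by role. Each of the groups except the FANCD2-FANCI pair holds genes on both sides of 0, from NBN at -1.41 to RAD51B at 1.12.

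Promoter windows were available for 36 of the 41 genes from RefSeq (GRCh38.p14, 250 bases before to 50 after the annotated start). They were searched on both strands for TTTCGCGC, TTTGGCGC or TTTCCCGC, forms of the site bound by E2F factors, which drive S-phase genes, and for CCAAT, the site of NF-Y. An E2F form was present in 6 of 36 member promoters (16.7%), in 2.74% of all 35116 promoters and in 3.84% of the 16397 promoters whose gene symbol was tested here. Of these 6, FANCD2 was higher, GEN1 was lower and EXO1, FANCC, TOPBP1 and XRCC2 did not pass the test. CCAAT was present in 14 of 36 (38.9%), against 34.6% of all promoters. A match describes these letters only. The stretches of 3 of the promoters, from 150 bases before to 30 after the annotated start, are shown because each carries an E2F form (capitals) within 10 bases of that start while the genes differed in their response, FANCD2 being higher, EXO1 not past the test and GEN1 lower. FANCD2 is shown at chr3:10026287-10026466 (plus strand), EXO1 at chr1:241848054-241848233 (plus strand) and GEN1 at chr2:17753719-17753898 (plus strand).
FANCD2: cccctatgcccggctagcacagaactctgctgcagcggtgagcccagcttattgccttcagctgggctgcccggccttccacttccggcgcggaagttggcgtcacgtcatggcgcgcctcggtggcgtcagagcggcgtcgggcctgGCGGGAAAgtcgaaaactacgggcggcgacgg
EXO1: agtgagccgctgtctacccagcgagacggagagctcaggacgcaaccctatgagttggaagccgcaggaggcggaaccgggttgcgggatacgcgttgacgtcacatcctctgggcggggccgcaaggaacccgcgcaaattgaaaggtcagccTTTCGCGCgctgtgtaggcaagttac
GEN1: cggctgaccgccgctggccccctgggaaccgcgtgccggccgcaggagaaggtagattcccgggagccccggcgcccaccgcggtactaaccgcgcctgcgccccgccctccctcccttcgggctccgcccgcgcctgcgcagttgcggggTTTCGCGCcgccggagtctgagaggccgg

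Among the genes that open and trim a break, NBN fell most and MRE11A rose, although their products form 1 complex with RAD50. NBN, the subunit that brings the complex to chromatin and recruits ATM (chromosome 8, 89933336 to 90003228, minus strand, GRCh38), was at 38.3, 35.6 and 36.6 CPM in siSRSF2 libraries, against 98.3, 99.5 and 96.1 CPM in WT libraries. Every siSRSF2 library lay far below every WT library, and the level was 37.5% of that in WT. This gave a log2 fold change of -1.41 (SE 0.051), with an edgeR adjusted p of 3.55e-18. MRE11A, the nuclease subunit, now named MRE11 (chromosome 11, 94415578 to 94493908, minus strand), was at 152, 151 and 141 CPM in siSRSF2 and 90.9, 90.9 and 90.0 CPM in WT libraries. The groups were well apart (log2 fold change 0.71, SE 0.046, edgeR adjusted p = 5.60e-13). RAD50, the ATPase that tethers the ends, did not pass (153 ± 6.58 CPM in siSRSF2, 165 ± 6.88 CPM in WT; log2 fold change -0.11, SE 0.047, edgeR adjusted p = 0.0574). In 5 of 13 alternative settings RAD50 passed, with adjusted p from 0.000906 to 1, and its sign turned with library totals (log2 fold change 0.02).

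RBBP8, which encodes CtIP, the activator of MRE11 (chromosome 18, 22798261 to 23026488, plus strand), was at 82.7, 80.6 and 77.5 CPM in siSRSF2, against 116, 109.9 and 114 CPM in WT. All siSRSF2 libraries were lower (log2 fold change -0.50, SE 0.047, edgeR adjusted p = 7.63e-10). The genes of long-range trimming and unwinding had log2 fold changes between -0.11 and 0.15. EXO1, an exonuclease, was at 89.3 ± 4.004 CPM in siSRSF2 and 96.3 ± 1.09 CPM in WT (log2 fold change -0.11, edgeR adjusted p = 0.0555). DNA2, a nuclease-helicase, and WRN, the Werner syndrome helicase, had log2 fold changes of -0.03 and 0.02 (edgeR adjusted p = 0.783 and 0.755). The signs of DNA2 and EXO1 turned with library totals, and that of WRN when no filter on low counts was used. BLM, the Bloom syndrome helicase, was called higher by a small amount (50.4 ± 1.99 CPM in siSRSF2, 45.3 ± 1.59 CPM in WT; log2 fold change 0.15, SE 0.055, edgeR adjusted p = 0.0175). That call held in 8 of 13 alternatives, with adjusted p from 9.99e-05 to 0.964, and was lost when siSRSF2 replicate 3, WT replicate 1 or WT replicate 3 was left out (adjusted p up to 0.0919).

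**Figure D2:**
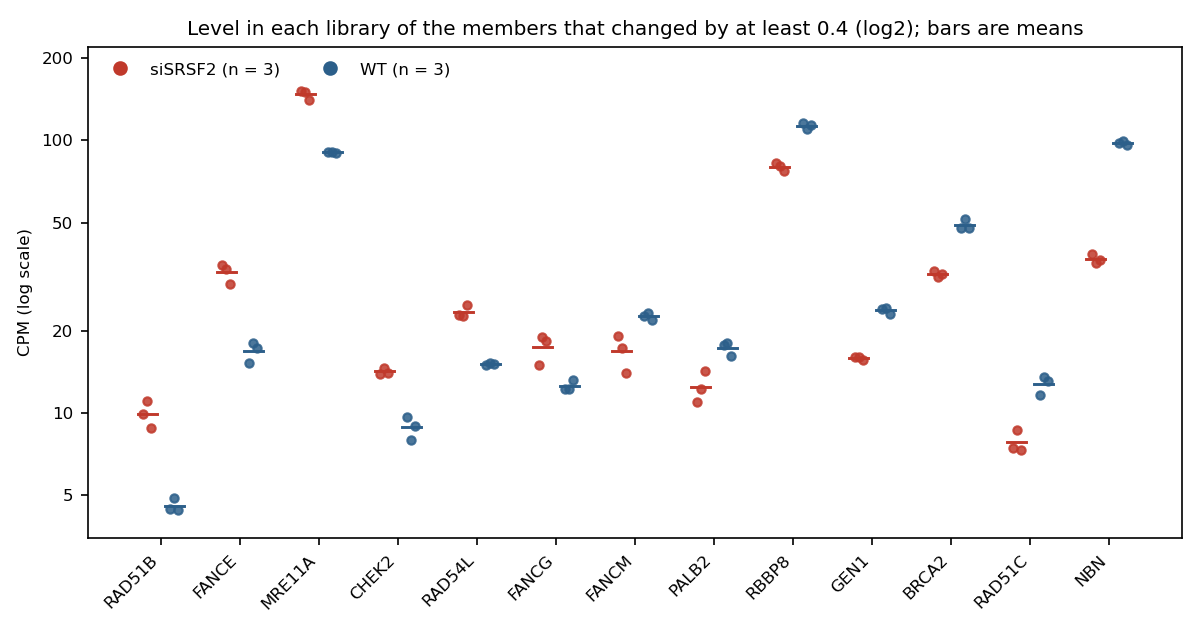
CPM on a log scale in each library for the 13 members that passed the test with an absolute log2 fold change of at least 0.4 and no overlap between groups, ordered from the highest to the lowest log2 fold change. Points are libraries (3 siSRSF2 on the left, 3 WT on the right of each gene) and bars are means, and in all 13 genes the 2 groups are separate, most widely for NBN (36.8 CPM in siSRSF2 against 97.97 CPM in WT on average).

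In the checkpoint group, ATM and CHEK2 were higher in siSRSF2 cells and ATR, ATRIP and CHEK1 lower. CHEK2, the effector kinase of ATM (chromosome 22, 28687743 to 28742422, minus strand), was at 13.99, 14.6 and 14.1 CPM in siSRSF2, against 9.72, 8.01 and 9.02 CPM in WT. The siSRSF2 libraries were all higher and closely grouped (log2 fold change 0.68, SE 0.091, edgeR adjusted p = 4.12e-07). ATM was at 200.1 ± 5.28 CPM in siSRSF2 and 156 ± 3.02 CPM in WT cells (log2 fold change 0.36, SE 0.044, edgeR adjusted p = 7.16e-08). ATR was at 53.9 ± 4.40 CPM in siSRSF2 and 66.8 ± 1.71 CPM in WT cells (log2 fold change -0.31, SE 0.056, edgeR adjusted p = 3.78e-05). The gene of its binding partner, ATRIP (20.6 ± 1.65 CPM in siSRSF2, 25.5 ± 0.801 CPM in WT; log2 fold change -0.31) and its effector kinase gene CHEK1 (50.3 ± 4.84 and 62.5 ± 2.32 CPM; -0.31) were lower by about the same amount. ATR, ATRIP and CHEK1 each passed in 12 of 13 alternatives and missed the threshold in the test for a change above 1.2-fold, where adjusted p was 0.161, 0.199 and 0.145 (lowest over the alternatives 6.43e-11, 7.93e-07 and 4.14e-11). TOPBP1, the activator of ATR, was at 76.1 ± 2.68 CPM in siSRSF2 and 73.2 ± 1.88 CPM in WT and did not pass (log2 fold change 0.06, edgeR adjusted p = 0.336). Its sign turned when no filter on low counts was used.

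The mediators also split. BRCA2, the mediator that acts on the trimmed single strands (chromosome 13, 32315474 to 32400266, plus strand), was at 33.2, 31.5 and 32.4 CPM in siSRSF2, against 47.8, 51.7 and 47.7 CPM in WT. PALB2, which joins BRCA2 to BRCA1 (chromosome 16, 23603160 to 23641310, minus strand), was at 11.0, 12.3 and 14.3 CPM in siSRSF2, against 17.8, 18.1 and 16.2 CPM in WT. Both genes were lower in every siSRSF2 library, BRCA2 by 0.60 and PALB2 by 0.47 on the log2 scale (SE 0.057 and 0.090, edgeR adjusted p = 8.35e-10 and 6.40e-05). BRCA1, a ubiquitin ligase that promotes trimming and mediator assembly (chromosome 17, 43044295 to 43170245, minus strand), was at 111, 114 and 123 CPM in siSRSF2, against 87.0, 89.2 and 88.2 CPM in WT. All siSRSF2 libraries were above all WT libraries (log2 fold change 0.40, SE 0.048, edgeR adjusted p = 6.67e-08). The ligase partner BARD1 (20.1 ± 0.146 CPM in siSRSF2, 18.7 ± 0.005 CPM in WT; log2 fold change 0.10) and the BRCA1-bound helicase BRIP1 (39.8 ± 1.52 and 41.2 ± 0.842 CPM; -0.05) did not pass (edgeR adjusted p = 0.201 and 0.477). With library totals the sign of BRIP1 turned (log2 fold change 0.08).

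RAD51B, RAD51C, RAD51D, XRCC2 and XRCC3 encode related proteins that form small complexes in strand pairing, and they showed the widest split between relatives. RAD51B (chromosome 14, 67819779 to 68730218, plus strand) was at 9.97, 11.1 and 8.80 CPM in siSRSF2, against 4.47, 4.88 and 4.43 CPM in WT. RAD51C (chromosome 17, 58692573 to 58735611, plus strand) was at 7.47, 8.72 and 7.36 CPM in siSRSF2, against 11.7, 13.6 and 13.1 CPM in WT. RAD51B was higher and RAD51C lower in every siSRSF2 library, with log2 fold changes of 1.12 (SE 0.115, edgeR adjusted p = 3.18e-09) and -0.70 (SE 0.099, edgeR adjusted p = 7.85e-07). RAD51D (12.8 ± 0.403 CPM in siSRSF2, 11.2 ± 0.939 CPM in WT; log2 fold change 0.18, edgeR adjusted p = 0.0795) and XRCC2 (72.7 ± 1.48 and 73.7 ± 3.07 CPM; -0.02, edgeR adjusted p = 0.768) did not pass. The sign of XRCC2 turned with library totals (log2 fold change 0.11). XRCC3 was called lower (23.9 ± 0.206 CPM in siSRSF2, 26.8 ± 1.64 CPM in WT; log2 fold change -0.16, SE 0.066, edgeR adjusted p = 0.0353), but passed in only 6 of 13 alternatives, with adjusted p from 0.00259 to 0.885. It was lost without siSRSF2 replicate 1 or 2 or without WT replicate 2 or 3 (adjusted p up to 0.161).

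Of the strand exchange motors, RAD54L rose and RAD54B did not pass. RAD54L (chromosome 1, 46247688 to 46278473, plus strand) was at 22.9, 22.7 and 25.0 CPM in siSRSF2, against 15.0, 15.2 and 15.1 CPM in WT. The groups were clearly apart (log2 fold change 0.64, SE 0.072, edgeR adjusted p = 1.74e-08). RAD54B was at 34.4 ± 0.804 CPM in siSRSF2 and 33.8 ± 0.906 CPM in WT (log2 fold change 0.02, edgeR adjusted p = 0.743), its sign turning when no filter on low counts was used. RAD52, which anneals single strands, was spread from 7.58 to 11.5 CPM among siSRSF2 libraries and from 9.82 to 10.7 CPM among WT libraries (log2 fold change -0.05, edgeR adjusted p = 0.760; 0.09 with library totals).

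In the Fanconi anaemia core complex 4 of 8 genes were higher and 1 was lower, a called share of 62.5% that is close to the 59.1% of all genes. FANCE, the subunit that docks FANCD2 (chromosome 6, 35452361 to 35467103, plus strand), was at 34.9, 33.9 and 29.9 CPM in siSRSF2, against 15.3, 18.1 and 17.4 CPM in WT. Its level was 1.94-fold higher, with no siSRSF2 library near the WT range (log2 fold change 0.96, SE 0.075, edgeR adjusted p = 1.94e-11). FANCG, a scaffold subunit (chromosome 9, 35073835 to 35080016, minus strand), was at 15.1, 18.99 and 18.5 CPM in siSRSF2, against 12.3, 12.3 and 13.3 CPM in WT (log2 fold change 0.48, SE 0.087, edgeR adjusted p = 3.25e-05). siSRSF2 replicate 1 was the lowest of its group for FANCG but still above all WT libraries. FANCA, which binds FANCG, was at 46.7 ± 3.34 CPM in siSRSF2 and 37.0 ± 1.16 CPM in WT (log2 fold change 0.34, SE 0.059, edgeR adjusted p = 2.12e-05), and held its call in 12 of 13 alternatives, missing the threshold for a change above 1.2-fold (adjusted p from 2.76e-07 to 0.0783). FANCB, a partner of the ligase subunit FANCL, was called higher by a small amount (17.2 ± 0.988 CPM in siSRSF2, 14.9 ± 1.15 CPM in WT; log2 fold change 0.21, SE 0.081, edgeR adjusted p = 0.0301). FANCB passed in 7 of 13 alternatives, with adjusted p from 0.000812 to 0.655, and was lost without siSRSF2 replicate 1 or without WT replicate 2 or 3 (adjusted p up to 0.145).

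FANCM, the translocase that anchors the core complex to DNA (chromosome 14, 45135940 to 45200890, plus strand), went the other way. It was at 19.2, 17.4 and 14 CPM in siSRSF2, against 22.8, 23.4 and 21.9 CPM in WT. All siSRSF2 libraries were lower, though they were more spread than the WT libraries (log2 fold change -0.43, SE 0.088, edgeR adjusted p = 0.000172). The remaining core genes did not pass: FANCC (19.4 ± 1.01 CPM in siSRSF2, 17.5 ± 0.459 CPM in WT; log2 fold change 0.15), FANCF (4.06 ± 0.638 and 3.57 ± 0.256 CPM; 0.19) and FANCL (18.7 ± 1.23 and 19.4 ± 0.699 CPM; -0.06), with edgeR adjusted p from 0.0875 to 0.508. The sign of FANCL turned with library totals (log2 fold change 0.07), and the value of FANCF was 0.0468 without siSRSF2 replicate 3 and 0.27 without siSRSF2 replicate 1.

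Both genes of the pair that the core complex ubiquitinates rose by small amounts. FANCD2 was at 117 ± 4.47 CPM in siSRSF2 and 103 ± 2.50 CPM in WT (log2 fold change 0.18, SE 0.047, edgeR adjusted p = 0.00162), and FANCI at 166 ± 8.78 and 139.9 ± 2.80 CPM (0.24, SE 0.047, edgeR adjusted p = 6.82e-05). In the test for a change above 1.2-fold neither passed, and FANCD2 also lost its call with no filter on low counts (adjusted p over the alternatives from 2.98e-06 to 0.932 for FANCD2 and from 6.42e-08 to 0.553 for FANCI).

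Of the nucleases that cut branched DNA, GEN1 fell and EME1 rose. GEN1, a resolvase of Holliday junctions (chromosome 2, 17753858 to 17788941, plus strand), was at 16.1, 16.1 and 15.7 CPM in siSRSF2, against 24.2, 24.3 and 23.2 CPM in WT. The groups were tight and far apart (log2 fold change -0.58, SE 0.069, edgeR adjusted p = 5.34e-08). EME1, the partner of the MUS81 nuclease, was at 44.2 ± 1.55 CPM in siSRSF2 and 33.6 ± 1.78 CPM in WT (log2 fold change 0.39, SE 0.059, edgeR adjusted p = 1.97e-06). MUS81 did not pass (15.2 ± 2.01 CPM in siSRSF2, 16.4 ± 0.974 CPM in WT; log2 fold change -0.11, edgeR adjusted p = 0.304; 0.02 with library totals, -0.0056 without siSRSF2 replicate 1 and -0.19 without siSRSF2 replicate 3). SLX4, the scaffold of these nucleases, was called lower (36.7 ± 1.33 CPM in siSRSF2, 40.8 ± 2.61 CPM in WT; log2 fold change -0.15, SE 0.060, edgeR adjusted p = 0.0296), but passed in only 6 of 13 alternatives, with adjusted p from 0.000969 to 0.941. It was lost without siSRSF2 replicate 2 or 3 or without WT replicate 1 or 3 (adjusted p up to 0.171).

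By the size that set genes apart for a full account, an absolute log2 fold change of 0.4, FANCM (-0.43) lay just inside and BRCA1 (0.40, before rounding 0.396) and EME1 (0.39) just outside. With the test and no overlap between groups, 6 members were past that size upward and 7 downward, against 24.2% and 20.8% of all genes tested.

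Because library scaling moves all genes alike, 12 pairs of genes whose products work together were also compared as read-count ratios within each library, which scaling cannot change. NBN and MRE11A were each set against RAD50 and not against each other. Among these 12 pairs the largest shift was between RAD51B and RAD51C. Their log2 ratio was 0.42, 0.35 and 0.26 in siSRSF2 libraries, against -1.38, -1.48 and -1.56 in WT libraries, so that RAD51B had more reads than RAD51C in siSRSF2 libraries and fewer in WT libraries. The difference of the means was 1.82 (SE 0.069), a 3.53-fold change of the ratio. The ratio of NBN to RAD50 was lower in siSRSF2 by 1.31 log2 units (mean -2.06 ± 0.035 in siSRSF2 and -0.75 ± 0.039 in WT, SD, n = 3 each). The ratio of MRE11A to RAD50 was higher by 0.81 (-0.05 ± 0.104 and -0.86 ± 0.053).

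Ratios without overlap between groups were also those of XRCC3 to RAD51C (difference 0.54, SE 0.097), EME1 to MUS81 (0.52, SE 0.164), BRCA1 to BRIP1 (0.44, SE 0.031), BRCA1 to BARD1 (0.29, SE 0.046) and XRCC2 to RAD51D (-0.21, SE 0.080). Each of these 8 pairs had p = 0.1 in the exact two-sided permutation test. This is the lowest p possible with 3 libraries per group, so no pair could pass, with or without adjustment over the 12. In the other 4 pairs the groups overlapped. The log2 ratio of ATRIP to ATR was -1.39 in siSRSF2 and -1.39 in WT libraries (difference -0.0004, SE 0.045, exact permutation p = 1). FANCI to FANCD2 (0.06, SE 0.077), BRCA2 to PALB2 (-0.12, SE 0.128) and FANCA to FANCG (-0.13, SE 0.090) also had small differences (exact permutation p from 0.2 to 0.5). Single libraries moved these values: leaving out 1 library at a time gave 0.0047 (without siSRSF2 replicate 2) to 0.133 (without siSRSF2 replicate 3) for FANCI to FANCD2, -0.23 (without siSRSF2 replicate 1) to -0.0194 (without siSRSF2 replicate 3) for BRCA2 to PALB2 and -0.19 (without siSRSF2 replicate 1) to -0.0622 (without siSRSF2 replicate 2) for FANCA to FANCG.

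**Figure D3:**
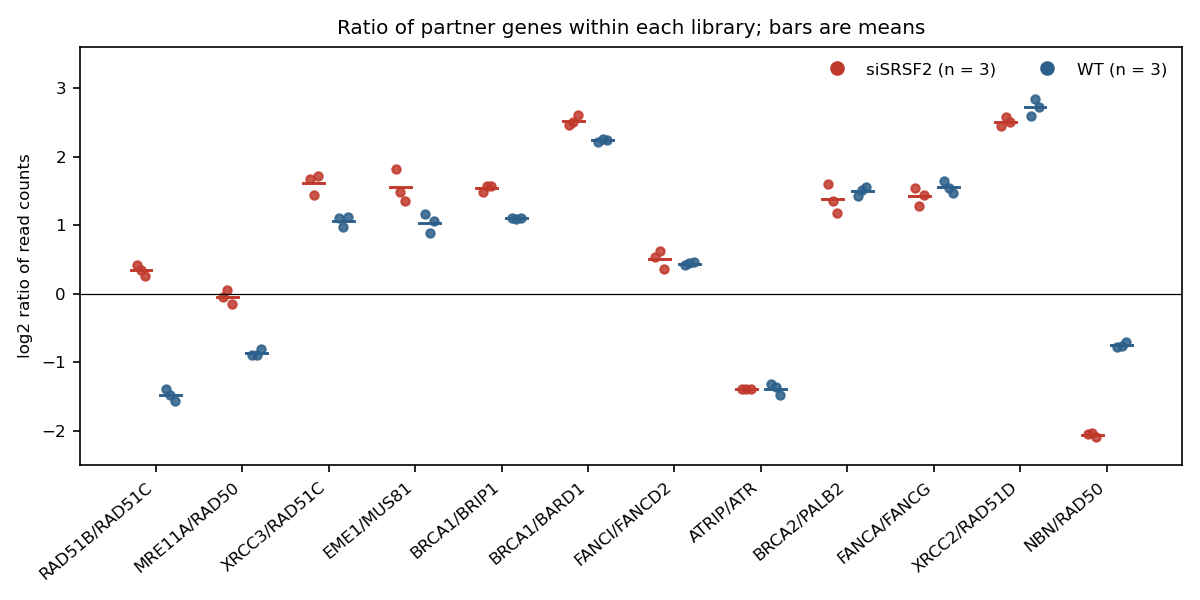
Log2 ratio of the read counts of 2 partner genes within each library (y axis), for 12 pairs ordered from the highest to the lowest difference, siSRSF2 minus WT. Points are libraries and bars are means (n = 3 per group), and the RAD51B/RAD51C ratio lies above 0 in siSRSF2 and below 0 in WT libraries while the ATRIP/ATR means are both -1.39.

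Levels between genes were compared as CPM per kilobase of merged exon. EXO1 was highest in both groups, at 21.6 in siSRSF2 and 23.2 in WT. FANCF was lowest in siSRSF2 (0.952; 0.836 in WT) and RAD51B lowest in WT (1.33 in siSRSF2; 0.614 in WT). NBN ranked 19 among the 41 in siSRSF2 and 5 in WT, MRE11A ranked 3 in siSRSF2 and 9 in WT, and FANCE ranked 10 in siSRSF2 and 17 in WT. RAD50, NBN and MRE11A were at 15.7, 5.98 and 19.2 in siSRSF2 and at 16.9, 15.9 and 11.8 in WT, so that NBN was the lowest of the trio in siSRSF2 cells. Merged exons can include sequence that a cell's own isoforms lack, so these levels are approximate.

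**Figure D4:**
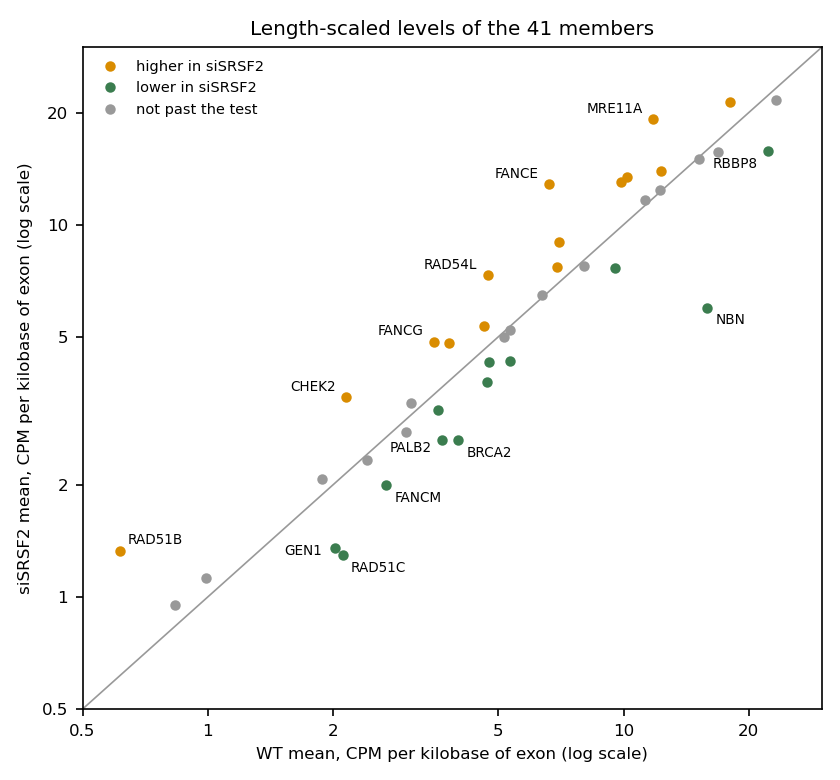
Mean CPM per kilobase of merged exon in siSRSF2 (y axis) against WT (x axis) for the 41 genes, both on log scales, with the line of equality and the 13 genes given in full named. NBN stands farthest below the line (5.98 in siSRSF2, 15.9 in WT) and RAD51B farthest above it (1.33 in siSRSF2, 0.614 in WT).

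Members spanned 4269 bases, for FANCF with 1 merged exon, to 910440 bases, for RAD51B with 33 merged exons. As a description across genes, which are not independent replicates, Spearman's rho of log2 fold change with gene span was -0.01 over the 41 members and 0.02 over 23590 genes tested, and with merged exon length -0.20 and 0.01. With the mean WT level per kilobase, which itself enters the fold change, rho was -0.04 over the members and -0.44 over all genes.

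Some members share exon bases with another entry of the table, and no source used here says whether counting was strand-specific. Reads in shared stretches could have gone to either gene or to neither. This held for 25 of the 41. It covers 76.7% of the exon bases of XRCC3, which lies opposite KLC1, a kinesin light chain gene with a similar log2 fold change (-0.16 for each). It covers 51.3% of RAD54B (FSBP, same strand), 33.8% of ATRIP (TREX1, same strand, log2 fold change 0.83), 25.1% of RAD54L (LRRC41, 0.13), 23.6% of FANCA (ZNF276, 0.05), 18.7% of FANCL (VRK2, -0.45), 16.4% of ATR (RP11-383G6.4, 0.52), 16.4% of EME1 (LRRC59, -0.98) and 13.9% of MUS81 (CFL1, -0.72). BRCA1 shares 120 exon bases (1.34%) on the same strand with RP11-242D8.1, which was at 52.1 CPM in siSRSF2 and 20.1 CPM in WT (log2 fold change 1.37). NBN, RAD51B, RAD51C, RBBP8, BRCA2, FANCE, FANCG and FANCM share none. Pseudogene entries named after members held few reads, 0 to 2 per library for the entries of CHEK2, 6 to 14 for FANCD2P2 and 4 to 22 for RBBP8P1, and how reads were divided between such copies is uncertain.

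Around the members, 3 lists of other repair genes and 2 of cell cycle genes were read in the same fit. Of 37 other recombination and Fanconi genes, 6 were higher and 15 lower (median log2 fold change -0.13). The share called was 56.8%, near the 59.1% of all genes (30.1% higher and 29% lower). ERCC1, which with ERCC4 (also called XPF) unhooks crosslinks, was at 45.5 ± 3.75 CPM in siSRSF2 and 181 ± 7.05 CPM in WT (log2 fold change -1.99, edgeR adjusted p = 3.67e-20). RMI2, a subunit of the BLM dissolving complex, was at 6.92 ± 0.288 CPM in siSRSF2 and 1.497 ± 0.391 CPM in WT (2.21, edgeR adjusted p = 6.43e-12). APITD1, now named CENPS, a histone-fold partner of FANCM, was at 24.0 ± 1.36 and 47.4 ± 1.06 CPM (-0.99, edgeR adjusted p = 1.38e-13). With library totals this list had 10 higher and 10 lower. ERCC4 did not pass (log2 fold change 0.08, edgeR adjusted p = 0.371).

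Of 16 genes for RPA, which coats single strands, for the checkpoint clamp and for fork protection, 7 were higher and 6 lower (median 0.12). Their called share was 81.2%, against 59.1% of all genes. The genes of the ring-shaped clamp that activates ATR signalling moved in opposite directions. RAD1 was at 114 ± 5.66 CPM in siSRSF2 and 235 ± 7.38 CPM in WT (log2 fold change -1.04, edgeR adjusted p = 2.99e-16) and HUS1 at 11.9 ± 1.24 and 22.5 ± 0.835 CPM (-0.92, edgeR adjusted p = 1.97e-10), while RAD9A was at 5.47 ± 0.516 and 3.02 ± 0.214 CPM (0.87, edgeR adjusted p = 5.55e-06). Of 19 genes of end joining, the competing route of break repair, and of the 53BP1 pathway that limits trimming, 5 were higher and 10 lower (median -0.19). Here the called share was 78.9%, against 59.1% of all genes. FAM35A, now named SHLD2, a subunit of the shieldin complex (-0.93), and the ligation factor NHEJ1 (-0.83) fell, and the gap-filling polymerase POLL rose (0.63), each with an edgeR adjusted p of 8.91e-07 or lower.

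Of 24 S phase genes 7 were higher and 8 lower (median -0.06), and 9 did not pass. Their called share of 62.5% was near the 59.1% of all genes. CDT1, a licensing factor, was at 47.1 ± 3.86 CPM in siSRSF2 and 25.6 ± 1.47 CPM in WT (log2 fold change 0.88), UHRF1, which maintains DNA methylation, at 326 ± 16.7 and 559 ± 26.6 CPM (-0.78), and RRM2, a ribonucleotide reductase subunit, at 199 ± 14.6 and 279.8 ± 13.5 CPM (-0.49). Of 22 G2 and mitosis genes 15 were higher and 6 lower (median 0.21), a called share of 95.5% against 59.1% of all genes. The phosphatase gene CDC25C (log2 fold change 1.02), the kinetochore gene CENPF (0.85) and the topoisomerase gene TOP2A (0.84) changed most, all upward. The 6 lower ones were CCNA2 and CCNB1 (-0.60 each), CDC20 (-0.53), PLK1 (-0.39), AURKA (-0.33) and BIRC5 (-0.17). CENPF was at 2323 ± 92.5 CPM in siSRSF2 and 1287 ± 10.9 CPM in WT. The part of a change in cell cycle distribution in the members' values was not tested.

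**Figure D5:**
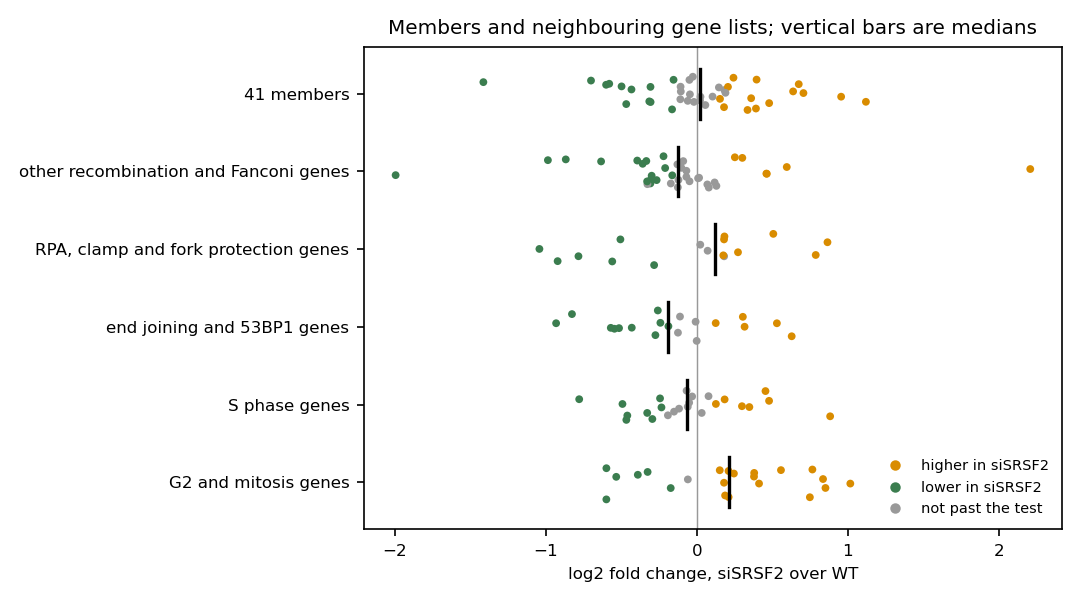
Log2 fold change, siSRSF2 over WT, of each tested gene in the 41 members and in 5 neighbouring lists. Points are genes, coloured by the edgeR call, and black bars are medians, which run from -0.19 for end joining and 53BP1 genes to 0.21 for G2 and mitosis genes, with the members at 0.02.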

How the data were processed

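Per the labels' protocols, TRI Reagent was used to isolate RNA and a SMARTER kit to prepare the sequencing libraries. The deposited values are raw counts of reads for each gene. HISAT2 2.0.5, featureCounts 1.5.0-p3 and the build mm10 are named in the submitters' processing notes. mm10 is a mouse build, but the deposited table holds human gene names, and its positions equalled those of GENCODE release 29 (GRCh38) for 37 of 41 members, so positions are given as GRCh38. Strand setting and the handling of reads that match several genes were not stated in the sources available. Each gene's merged exon length is a deposited column.

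The fit was made with edgeR 4.0.16 under R 4.3.3: filterByExpr (minimum count 10, 23689 genes kept), TMM scaling, and the robust quasi-likelihood F test with group as the only term, adjusted by Benjamini-Hochberg over all genes tested. Each SE is the absolute log2 fold change divided by the square root of F. CPM values use TMM-scaled library sizes. Partner ratios used counts plus 0.5. Within groups, libraries differed beyond counting noise (chi-square per gene from 3.83 to 8.75). The fit was tested on simulated data, made with the same relative spread for every gene. Planted changes of 1.2-fold were found for 8.33% of their genes, of 1.5-fold for 72%, of 2-fold for 87.5% and of 4-fold for 100%. False calls made up 3.7% of the calls.

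Members past the test with no overlap and an absolute log2 fold change of at least 0.4 were given in full, and up to 3 called genes per neighbouring list, by size of change, were named. ERCC4, named as the partner of ERCC1, the lower G2 and mitosis genes and BRCA1 in full were chosen after their values were seen. The members and lists were chosen with earlier results of these data known, and 3 listed genes were found under a newer symbol. Alternatives were DESeq2 1.42.0, RLE factors, library totals, no filter, a mean CPM of at least 1, the replicate number as a block, a test against a change of 1.2-fold and each library left out in turn. Results for some listed genes are not reported here.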

Additional observations from a re-analysis of the deposited data

How the results depend on the processing

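Of the 26 members called, 22 kept their call and direction in every fit that left out 1 library. The exceptions were XRCC3, BLM, FANCB and SLX4, each lost in 3 or 4 of the 6 fits. Without single libraries the members called were 12 to 14 higher and 11 to 12 lower. Tested against a change of 1.2-fold, 9 were higher and 7 lower. In the main result 14 were higher and 12 lower, DESeq2 gave 13 and 12, RLE factors 14 and 14, library totals 20 and 10, no filter 11 and 14, and a mean CPM of at least 1 gave 17 and 10. No pairing by replicate number was seen in the values. Deviations of same-numbered libraries from their group means had correlations of 0.0133, -0.0472 and -0.0457. With so few libraries these values cannot show whether the samples were paired. The replicate block left 14 higher and 12 lower and changed no call among the 41. For the partner ratios a block cannot change the difference, because the mean of same-numbered differences equals the difference of the group means. The difference for RAD51B to RAD51C was thus again 1.82, with an exact sign-flip p of 0.25.

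No called member changed sign in any of these settings. Among members not past the test, log2 fold changes turned with library totals for BRIP1 (0.0813), RAD50 (0.0233), RAD52 (0.0866), XRCC2 (0.1105), EXO1 (0.0228), DNA2 (0.1053), FANCL (0.0692) and MUS81 (0.0227). With a mean CPM of at least 1 they turned for BRIP1 (0.0021), RAD52 (0.0053), XRCC2 (0.0320) and DNA2 (0.0248), and with no filter for RAD54B (-0.0506), WRN (-0.0531) and TOPBP1 (-0.0183). Leaving out 1 library gave RAD52 -0.18 to 0.10, RAD54B -0.0038 to 0.0390, XRCC2 -0.0586 to 0.0022, WRN -0.0476 to 0.0675 and DNA2 -0.110 to 0.0546, all with a change of sign, FANCF 0.0468 to 0.266 and MUS81 -0.187 to -0.0056, and an ATRIP to ATR difference of -0.0438 to 0.0314. The cause was not tested.

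Neighbouring lists moved by more than 1.5 times in these counts. Other recombination and Fanconi genes had 10 higher with library totals (6 in the main result) and 5 lower against 1.2-fold (15). RPA, clamp and fork genes had 3 higher with no filter and 3 against 1.2-fold (7). Against 1.2-fold, end joining and 53BP1 genes had 2 higher (5) and 6 lower (10), S phase genes 3 higher (7) and 4 lower (8), and G2 and mitosis genes 9 higher (15). siSRSF2 libraries were shallower, so low genes such as FANCF, with 98 to 166 reads there, are the least precise.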

Other observations

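Genes of the kinase complexes that phosphorylate RNA polymerase II along long genes, and on which full-length transcripts of several repair genes are known to depend, were lower in siSRSF2 cells. All 3 listed were called lower, where 29% of all genes were. CDK12 had 3462, 4845 and 4634 reads in siSRSF2 libraries and 12649, 12196 and 12657 reads in WT libraries, which is 129 ± 4.24 CPM against 266 ± 0.792 CPM (SD, n = 3 each; log2 fold change -1.05, edgeR adjusted p = 7.59e-17). CDK13 was at 38.7 ± 1.73 CPM in siSRSF2 and 55.0 ± 1.04 CPM in WT (-0.51), and their cyclin gene CCNK at 29.8 ± 1.44 and 41.6 ± 1.31 CPM (-0.48). This list and the other 2 described here were added after the data were seen, and any link to the repair genes was not tested.

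Of 19 genes for E2F factors, RB family proteins and the DREAM and MuvB complexes, which time repair gene transcription in the cell cycle, 8 were higher and 8 lower, where 30.1% and 29% of all genes were. Their called share was 84.2%, against 59.1% of all genes. TFDP2, a dimer partner of E2F, was at 30.1 ± 0.811 CPM in siSRSF2 and 13.3 ± 0.370 CPM in WT (log2 fold change 1.17), and RBL2, which encodes the repressor p130, at 38.4 ± 3.22 and 20.1 ± 1.13 CPM (0.93). The repressor gene E2F6 was lower, at 12.7 ± 0.703 CPM in siSRSF2 and 24.5 ± 0.659 CPM in WT (-0.95). Of 5 genes of the complex that holds BRCA1 at ubiquitinated chromatin, 3 were lower and 2 did not pass, a called share of 60% against 59.1% of all genes. BRCC3 (-0.61), FAM175A, now named ABRAXAS1 (-0.54), and BABAM1 (-0.16) were the lower ones. With library totals 1 of the 5 was higher and 2 were lower, with BABAM1 at -0.0261, and against 1.2-fold 0 were higher and 2 lower.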
